A study of Mus musculus with 419 samples.

Results

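The cytosolic ribosomal protein genes encode the protein part of the ribosome, and 80 autosomal protein-coding genes were taken as members by their GENCODE vM21 symbol: Rpl or Rps followed by a digit, plus Rplp0, Rplp1, Rplp2 and Rpsa. Kinases and binding proteins with similar names, symbols marked as pseudogenes and names ending in rt were left out. The choice used names and no measured value. The X-linked Rpl10, Rpl36a, Rpl39 and Rps4x are not members, and every value on chromosome X is 0 in the 129 table. Of the 80 members, 79 passed the filter on low values (a pooled value of at least 1000 and a value above 0 in at least 10% of cells), 48 of them in the large and 31 in the small subunit, against 11857 autosomal genes that passed in all. The exception was Rpl3l, a relative of Rpl3 known from striated muscle, which had a mean of 1.13 per cell and a value above 0 in 38.9% of cells.

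The 419 libraries are single cells in the G1 phase of the female mouse embryonic stem cell line F1-21.6, which carries chromosomes of strain 129Sv and of Cast/EiJ, here called 129 and CAST. The line was grown on Laminin-511 without feeder cells in medium with serum and LIF, and its libraries were made by RamDA-seq, which covers whole transcripts of total RNA and adds no molecular identifiers. All cells form 1 group of 1 line, no separate cultures are named, and they were sequenced in 5 lanes of 80 to 88 cells, so the 419 cells count as 1 sample. Every value below is therefore a description over cells, genes or lanes, and none is a test. The authors deposited an estimated, scaled value for each transcript and each allele. In this report a gene's value is the sum of its annotated transcript rows, and its level is that value divided by transcript length in kilobases (kb) and averaged over cells.

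Cell totals over both alleles averaged 925409 ± 61504 (SD over 419 cells). Pou5f1 and Zfp42, which mark the pluripotent state, were above 0 in all 419 cells. In 28 cells the sum of 10 embryonic stem cell markers was below 25% of the median over all cells, and the main results that rest on variation between cells are given with all cells and with the other 391. The sum of 5 fibroblast markers was above 100 in 12 of those 28 cells and in 1 of the other 391, and that of 5 trophectoderm markers in 9 of the 28 and in 17 of the 391. The fibroblast sum ran from 0.876 to 2710 in the 28 cells and from 0 to 110 in the 391, the trophectoderm sum from 0 to 746 and from 0 to 346, the primitive endoderm sum from 0 to 147 and from 0 to 112, and the neural sum from 0 to 885 and from 0 to 150. No defining marker on these lists was at 0 in all cells. The part of these cells in the results was not tested.

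Each ribosome takes up nearly every ribosomal protein in equal number, so the genes of the family are known for even, high expression. In mammals their mRNAs typically begin with a C followed by a run of pyrimidines, the terminal oligopyrimidine tract, through which mTOR signalling controls their translation. The compact, highly expressed mRNAs have also been copied back into the genome many times as processed pseudogenes, whose sequence can be nearly that of the parent mRNA.

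The sequences of some of these copies are shown because the values of several members turn on them. In each pair below, the member's coding sequence in GENCODE vM21 (mm10) is followed by the aligned stretch of its copy. Capitals mark the bases that differ.

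Rpl37: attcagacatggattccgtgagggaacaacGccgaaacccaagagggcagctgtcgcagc
Rpl37rt: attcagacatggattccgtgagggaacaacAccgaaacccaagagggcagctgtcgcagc
Rpl23: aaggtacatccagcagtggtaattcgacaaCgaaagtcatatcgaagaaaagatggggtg
Gm9794: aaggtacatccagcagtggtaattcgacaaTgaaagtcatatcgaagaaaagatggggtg
Rps7: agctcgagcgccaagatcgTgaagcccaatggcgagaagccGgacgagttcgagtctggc
Gm6472: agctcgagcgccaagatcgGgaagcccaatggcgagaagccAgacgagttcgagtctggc
Rpl5 and Gm15500: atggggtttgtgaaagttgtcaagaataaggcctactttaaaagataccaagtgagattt

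Rpl37 (chr15:5116645-5119140, plus strand) and Rpl37rt (chr5:115102923-115110268, minus strand) differed at 1 coding base. Rpl23 (chr11:97777527-97782437, minus strand) and Gm9794 (chr6:66875321-66875743, minus strand) differed at 1 of 420 coding bases. Rps7 (chr12:28630854-28635953, minus strand) and Gm6472 (chrX:152909505-152910155, minus strand) differed at 3 of 582. Rpl5 (chr5:107900502-107909005, plus strand) and Gm15500 (chr7:114705217-114706235, minus strand) were identical over all 891 aligned bases. A short read from such a stretch holds few or no bases that tell member and copy apart.

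Across the annotation, 316 pseudogenes with a transcript row, a few of them at 0 in every cell, had at least 50% of their 25-base words in a member. Of the 79 members, 70 had at least 1 such copy. These copies are named here as rows of the deposited tables, since a value at a copy and a read that came from the member cannot be told apart in these files.

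The ribosomal protein genes, with all their annotated rows, took 3.30% ± 0.373 of a cell's total value (SD over 419 cells). In 12 of the 79 members most of the value lay in noncoding transcript rows, and with protein-coding rows only the share was 2.95%. The lowest cell had 1.19%, the median cell 3.33% and the highest 4.54%. The lowest cell also had the highest total of all cells, 1477656, with 21872 rows above 0 against a mean of 29245, and the next lowest, at 1.36%, had only 0.0120% of its value in mitochondrial rows against a mean of 4.60%. Both are among the 28 cells low in stem cell markers, without which the share was 3.34% ± 0.296 (SD over 391 cells). Lane means ran from 3.23% to 3.38%. The copies held another 0.655% ± 0.0832 of the cell total, or 16.6% ± 1.27 of the value of members and copies together. Summed over members, the large subunit had 1.37 times the value of the small subunit, and this ratio varied little between cells, with a coefficient of variation (CV, SD over mean) of 5.03%.

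Ribosomal protein genes were among the most abundant transcripts per length. The median level was 447 per kb over 79 members (quartiles 219 and 732), against 9.89 over all 11857 genes. In all, 75 members were in the top 10% of genes by level and 47 in the top 1%, where by construction the shares of all genes are 10% and 1%. Members nevertheless differed 8.56-fold between the 10th and the 90th percentile. For levels with copies, here and below, the level of each copy over its own transcript length was added to that of its member. The median then became 675 per kb and the ratio of these percentiles 3.72. Levels with copies thus depend also on the lengths of the copies, and the effect of these lengths was not tested. The difference in median log2 level, large minus small subunit, was -0.51 for the members alone and -0.10 with copies.

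**Figure D1:**
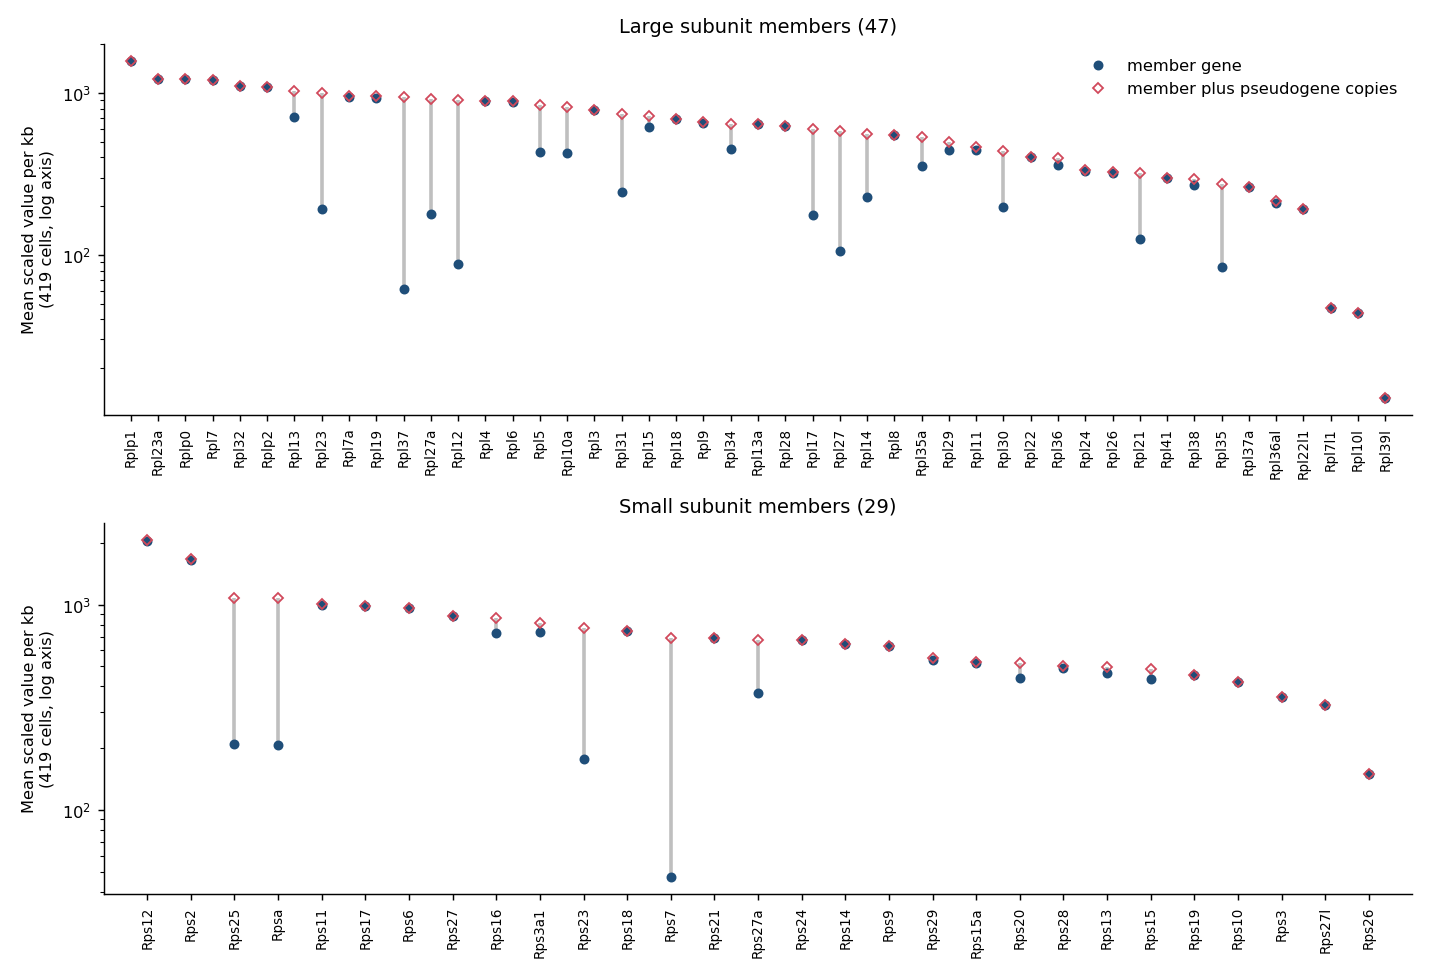
Mean scaled value per kb (log axis) of 47 of the 48 large and 29 of the 31 small subunit members, each as the member gene alone (filled circles) and with its pseudogene copies (open diamonds). Most members lie within a narrow band once copies are added, with Rpl7l1, Rpl10l and Rpl39l far below it.

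The highest level was that of Rps12, a small subunit protein, whose deposited value was 0 in the lowest cell, 1014 in the median cell and 1850 in the highest. Its level was 2035 ± 382.7 per kb (SD over 419 cells). Rps2, which lies near the mRNA entry site, followed at 1644 ± 242 per kb. Rpl23a, a protein at the exit of the nascent chain, had 1214 ± 199 per kb.

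The stalk of the large subunit, which recruits translation factors, is built from Rplp0 and pairs of Rplp1 and Rplp2. Rplp1 had values of 333, 779 and 1708 in the lowest, median and highest cell, Rplp0 had 549, 1339 and 2534, and Rplp2 had 150, 460 and 817. Per length, their levels were 1582 ± 281.5, 1225 ± 190 and 1083 ± 171 per kb (SD over 419 cells). All 3 were therefore within a factor of 1.46, and all had under 1% of their family value in copies. Over cells, Rplp1 and Rplp2 correlated with r = 0.76 (419 cells) and 0.70 in the 391 cells, the highest value of any pair of members in the 391 cells.

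Rpl5 and Rpl11 form a particle with the 5S ribosomal RNA, which can also bind Mdm2. Rpl5 ran from 1 in the lowest cell to 1097 in the highest, with a median of 419, whereas Rpl11 ran from 66 to 436 with a median of 272. As annotated, their levels were alike, at 430 ± 297 and 444 ± 86.5 per kb (SD over 419 cells), but the spread of Rpl5 over cells was far wider. With copies the levels were 847 per kb for Rpl5 and 463 per kb for Rpl11. Copies held 47.9% of the family value of Rpl5 and 3.51% of that of Rpl11. The correlation of the pair over cells was 0.27 as annotated (0.23 in the 391 cells) and 0.64 in all cells after the copies of each were added.

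Rps6, the substrate of the S6 kinases, had a level of 961 ± 150 per kb, and Rps19, which is mutated in Diamond-Blackfan anaemia in humans, had 456 ± 72.3 per kb. Rps27a, made as a fusion with ubiquitin, had 370 ± 82.7 per kb and 37.7% of its family value in copies. Rpsa, also known as a laminin receptor, had 207 ± 32.5 per kb, and 65.9% of its family value lay in copies, mainly Rpsa-ps10. With copies its level was 1083 per kb.

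The low end held related genes with restricted roles and members whose value lay mostly at copies. Rpl39l and Rpl10l are autosomal relatives of X-linked genes and are known from the male germ line. Rpl39l had 0, 4 and 58 in the lowest, median and highest cell and a level of 13.0 ± 16.8 per kb. Rpl10l had 0, 35 and 175 and a level of 43.8 ± 33.4 per kb. Neither had a copy, so both levels stood as they were. Rpl7l1, a relative of Rpl7, reached 47.2 ± 13.7 per kb, or 0.0392 of the level of Rpl7.

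Other relatives were closer to their counterparts. Rpl22l1 had 8, 93 and 227 in the lowest, median and highest cell, and its level over all annotated rows was 0.473 of that of Rpl22. Protein-coding transcript rows held only 13.5% of the value of Rpl22l1, against 93.5% of that of Rpl22. Rps27l, known as a p53 target, had 55, 157 and 344, and its level was 0.368 of that of Rps27. Rpl36al, a relative of the X-linked Rpl36a, had 18, 113 and 193 and a level of 209 ± 45.9 per kb. Over cells, Rpl22l1 correlated with Rpl22 at 0.26 and Rps27l with Rps27 at 0.26, which became 0.086 and 0.18 in the 391 cells.

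Rps7 and Rpl37 were among the 5 lowest members by level, at 46.9 ± 17.8 and 61.8 ± 15.8 per kb. With their copies they reached 691 and 948 per kb, within the band of the other members. The same held for Rpl12, at 88.2 per kb alone and 911 with copies. In 13 members the copies held more than the member itself, among them Rpl12, Rpl17, Rpl23, Rpl27, Rpl27a, Rpl31, Rpl35, Rpl37, Rps23, Rps25, Rps7 and Rpsa. Which of these values belong to transcripts of the copies was not tested.

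In several families the member and its copies traded value from cell to cell. For Rpl5 and its copies the correlation of values over 419 cells was -0.89, and the copies exceeded the member in 48.9% of cells. The CV of Rpl5 was 0.687 alone and 0.164 with copies. For Rpl35 the correlation was -0.75, and the CV was 1.24 alone and 0.352 with copies. Rpl17 behaved likewise, with a correlation of -0.45 and a CV of 0.380 alone and 0.155 with copies. Over the 391 cells the correlations were -0.91 for Rpl5, -0.77 for Rpl35 and -0.54 for Rpl17. In other families member and copies rose together. The correlation was 0.61 for Rpl37 and 0.47 for Rpl23 over 419 cells, and 0.55 and 0.42 over 391.

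Among the 70 members with copies, adding them lowered the CV of 65. Members with a CV of at least 0.25 numbered 17 of 79 as annotated and 6 of 79 with copies, and in the 391 cells 12 and 6. Most genes lay above this limit, with a median CV of 0.595 over all 11857 genes. The median was 0.281 in 831 other genes at or above the lower quartile of member means. Summing values that do not vary fully together tends to lower the CV, and no sums of other genes are given for comparison. Rpl10l, Rpl39l and Rpl22l1, of which the first 2 have no copy, stayed variable, with CVs of 0.760, 1.28 and 0.424 after copies were added.

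**Figure D2:**
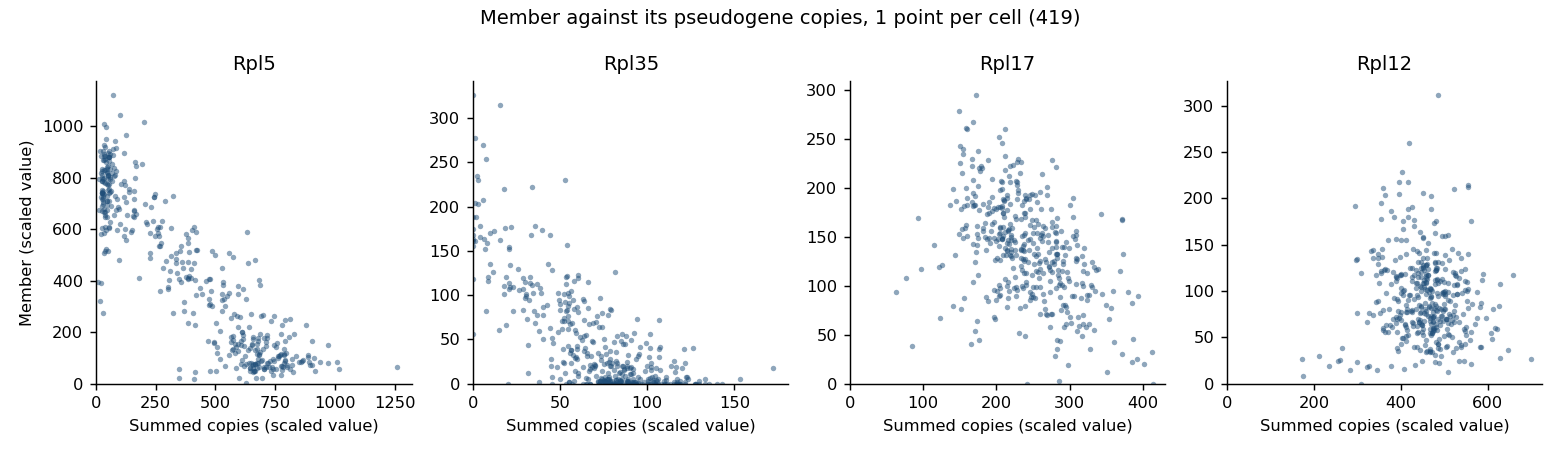
Scaled value of Rpl5, Rpl35, Rpl17 and Rpl12 (vertical axes) against the sum of the pseudogene copies of each (horizontal axes), 1 point per cell (419 cells). Points of Rpl5 run from high member and low copies to the reverse (r = -0.89), and for Rpl12 the copies exceed the member in 100% of cells.

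The share of a gene's value assigned to 129 could be read for 71 members. In the other 8, among them Rpl18, Rpl22l1, Rpl36al, Rplp2, Rps16, Rps27 and Rps27a, the 129 and CAST tables held nearly the same value in each cell, as in rows without strain variants, and their shares near 50% carry no allele information. Such rows were 8 of 79 members, against 4.16% of all genes.

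The median 129 share of the informative members was 49.6% (quartiles 47.1% and 54.3%), against 50.1% over 11364 informative genes (quartiles 46.0% and 54.1%). Of the 71 members, 42 lay between 45% and 55%, a band that also holds both quartiles of all informative genes. At or above 60% were 7 members (9.86%), where 9.1% of all informative genes lay, and at or below 40% were 5 (7.04%), against 11.1% of all. Together, 12 members (16.9%) lay beyond 40% to 60%, against 20.2% of all informative genes, a share near the background.

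On the 129 side, Rps15, a small subunit protein, had the highest share. Its mean was 186 ± 40.0 from 129 and 30.6 ± 22.6 from CAST (SD over 419 cells), a 129 share of 85.9% with lane values from 84.3% to 86.9%. Rpl29 followed at 70.4% (lanes 70.2% to 70.7%), Rpl21 at 70.2% (69.2% to 70.6%), Rpl17 at 66.7% (65.1% to 68.8%) and Rps23 at 62.9% (61.1% to 64.6%). Rpl39l, at 62.3%, ranged from 52.7% to 73.9% over lanes, so not every lane placed it beyond 60%.

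On the CAST side, Rpl37 had a mean of 5.17 ± 2.44 from 129 and 46.5 ± 12.2 from CAST, a 129 share of 10.0% (lanes 9.12% to 10.8%). Rpsa stood at 22.9% (22.5% to 23.9%), Rpl27a at 24.2% (23.6% to 25.0%) and Rpl27 at 31.8% (29.6% to 33.6%). The lane ranges of these members lay wholly below 40%, as those of Rps15, Rpl29, Rpl21, Rpl17 and Rps23 lay wholly above 60%.

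For several members the share turned round when the copies were counted. The row of Rpl37rt, which differs from Rpl37 at the capital in the pair shown above, had a 129 share of 99.4%, and the family of Rpl37 had 69.5% from 129. In the other direction, Rpl23 had 58.3% alone, its copy Gm9794 had 0.0154%, and both together had 17.6%. Rps7 had 48.7% alone and 10.4% with copies, of which Gm6472 lies on chromosome X, where every 129 value is 0. Rpl17 had 66.7% alone and 24.3% with copies. Whether the shares near 0% and near 100% are of the copies or of reads from the member was not tested.

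Rpl27a had 24.2% alone and 41.8% with copies, and Rps23 62.9% alone and 55.2% with copies, so both then lay within 40% to 60%. Shares near their own value with copies were those of Rpsa, Rpl29 and Rps15. Rpsa had 22.9% alone and 19.2% with copies, Rpl29 70.4% with and without them, and Rps15 85.9% alone and 82.4% with copies. With all copies added, 15 of the 72 families with allele information (20.8%) lay beyond 40% to 60%. The members on chromosome 12, where Rps29 had 49.2%, Rps7 48.7% and Rpl10l 42.1%, were all within 40% to 60%, and Rpl36al there was without allele information.

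**Figure D3:**
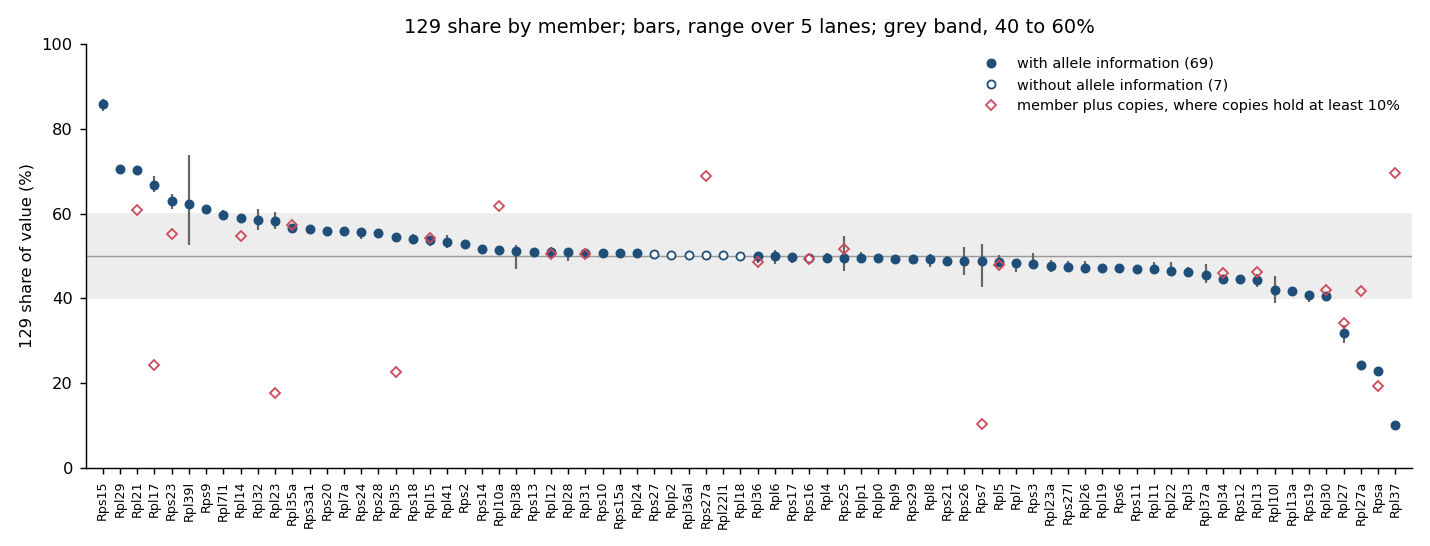
Share of the value assigned to 129 for 76 of the 79 members, in falling order, with the range over the 5 lanes as bars, open circles for members without allele information, and open diamonds for member plus copies where copies hold at least 10% of the family. Most members lie in the grey band of 40% to 60%, and the diamonds of Rpl37, Rpl23, Rpl17, Rpl35 and Rps7 lie far from their circles.

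Intrinsic noise is the mean squared difference between the mean-scaled alleles within a cell, divided by 2, and its residual is the log2 distance from the running median of genes with a like mean. In 70 members that entered this measure, the median intrinsic noise was 0.0556, against 0.134 in 783 other genes at or above the lower quartile of member means. The median residual was -1.19 (quartiles -1.69 and -0.47), and 61 of 70 members had a residual below 0, against 49.7% of 7401 genes. A residual of -1 or lower was found in 42 of 70, against 7.36% of all. In the other direction, 5 members had a residual of 1 or higher, against 6.23%. The median residual was -1.17 in 69 members in the 391 cells. Most comparison lists lay below the running median too. The median residual was -0.80 for translation factors, -0.61 for mitochondrial ribosomal proteins, -0.50 for nuclear respiratory chain genes and -0.35 for proteasome subunits. It was -1.71 for the 3 ribosomal protein genes outside the name rule and -0.44 for ribosome biogenesis genes. Regulators of ribosomal protein synthesis lay above the running median, at 0.11.

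The lowest residual was that of Rps14, a small subunit protein of the platform, at -4.30, with an intrinsic noise of 0.00508. Rpl31 (-3.36), Rpl36 (-2.64), Rps3a1 (-2.53) and Rps29 (-2.47) followed. The 129 shares of Rps14, Rpl31, Rpl36 and Rps29 were 51.5%, 50.7%, 49.9% and 49.2%, close to an even split, and that of Rps3a1 was 56.4%. How far an even split of reads without a strain variant lowers these values was not tested, since the files do not say how many reads of a row held a variant.

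The 5 members with high residuals were Rps23 (1.91), Rpl32 (1.86), Rps25 (1.69), Rps26 (1.67) and Rps15 (1.27). In Rps26 the 129 value averaged 49.6 ± 34.7 and the CAST value 52.0 ± 34.4 (SD over 419 cells), while the sum of both alleles had a CV of only 0.202. The 2 alleles of Rps26 correlated at -0.56 over cells, those of Rps25 at -0.53, those of Rpl32 at -0.50, those of Rps23 at -0.50 and those of Rps15 at -0.28. Cells with a high 129 value of these genes thus tended to have a low CAST value. Over the 391 cells the values were -0.57 for Rps26, -0.59 for Rps25, -0.62 for Rpl32, -0.56 for Rps23 and -0.34 for Rps15. An allele correlation below -0.2 was found in 10 of the 71 informative members (14.1%), against 27.7% of all informative genes. Beside other genes of high mean the shares were alike. In the 391 cells such a correlation was found in 12 of 69 members in the noise measure. It was found in 141 of 783 other genes at or above the lower quartile of member means.

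**Figure D4:**
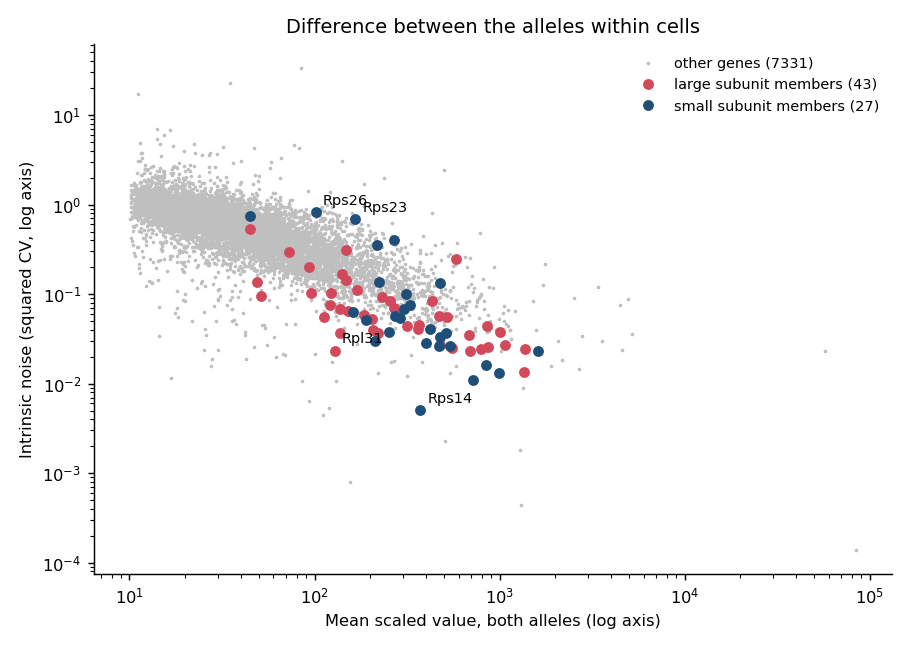
Intrinsic noise (vertical, log axis) against the mean scaled value over both alleles (horizontal, log axis) for 43 large and 27 small subunit members and 7331 other genes. Most members lie below the cloud at their mean, with Rps14 lowest, and Rps23 and Rps26 lie above it.

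Shared noise is the covariance over cells of both alleles after each is divided by its mean. Its median was 0.00976 in 70 members, against 0.0201 in the 783 other genes of high mean. It was 0.00439 in 69 members, against 0.0105 in the 783, when the 391 cells were used. In all cells the highest values were those of Rpl35 (1.47), Rpl5 (0.434), Rpl10l (0.328), Rpl12 (0.133) and Rpl17 (0.113), and in all of these but Rpl10l, which has no copy, copies held 47.9% to 83.0% of the family's value. The lowest were those of Rps26 (-0.37), Rps23 (-0.27), Rps7 (-0.23), Rps25 (-0.17) and Rpl23 (-0.10). Shared noise was below 0 in 19 of 70 members, against 56.5% of 7401 genes. Beside the other genes of high mean the shares were alike in the 391 cells, 27 of 69 members and 322 of 783 genes.

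The sum over both alleles varied little between cells. The median CV was 0.183 in 79 members, against 0.281 in 831 other genes of high mean, and 71 of 79 members had a CV below the running median for their mean, against 49.8% of all genes. The median CV was 0.167, against 0.265, in the 391 cells. The log2 distance from the running median was -0.50 in the median member. Some comparison lists had like values, -0.61 for nuclear respiratory chain genes, -0.58 for proteasome subunits and -0.51 for mitochondrial ribosomal proteins. The ribosomal protein genes outside the name rule had -0.50. Others lay closer to the running median, at -0.39 for translation factors, -0.17 for ribosome biogenesis genes and -0.10 for regulators of ribosomal protein synthesis. Among the 8 members above the running median were Rpl5, Rpl35, Rpl10l, Rpl39l, Rpl12, Rpl22l1 and Rpl17.

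Ribosomal protein genes varied together. Over 3003 pairs of 78 members, the mean correlation of log2 values was 0.399 in all 419 cells, with 98.3% of pairs above 0, against 0.106 for pairs of 831 other genes at or above the lower quartile of member means. Within lanes the mean ran from 0.256 to 0.498. In the 391 cells with stem cell markers at or above the limit the mean was 0.246, with 95.7% of pairs above 0, against 0.0429 for the other genes, and within lanes it ran from 0.214 to 0.294. The 28 cells left out had a ribosomal protein share of 1.19% to 3.65% with a median of 2.84%, and the other 391 had 2.25% to 4.54% with a median of 3.35%. Among the comparison lists, ribosome biogenesis genes had nearly the same mean over pairs, 0.383 in 419 cells and 0.237 in 391. The 3 ribosomal protein genes outside the name rule had 0.490 and 0.329. Translation factors had 0.251 and 0.138, proteasome subunits 0.201 and 0.140, and nuclear respiratory chain genes 0.189 and 0.107. Mitochondrial ribosomal proteins had 0.154 and 0.091, and regulators of ribosomal protein synthesis 0.067 and 0.026.

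Pairs within the small subunit had a mean correlation of 0.440, pairs within the large subunit 0.381 and pairs between subunits 0.399. In the 391 cells these were 0.272, 0.240 and 0.242. The sums of the large and the small subunit correlated at 0.930 in 419 cells and 0.877 in 391. All members come from the same libraries and share each cell's depth and scaling.

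In all cells, the members with the highest mean correlation to the others were Rpl8 (0.534), Rps18 (0.533), Rpl6 (0.529), Rpl28 (0.528) and Rplp2 (0.521). The lowest were Rpl35 (-0.014), Rpl39l (0.083), Rpl41 (0.161), Rpl17 (0.170) and Rpl5 (0.176). In the 391 cells the highest were Rplp2 (0.382), Rpl28 (0.375), Rpl8 (0.365), Rps18 (0.362) and Rpl6 (0.355), and the lowest Rpl35 (-0.045), Rpl10l (0.022), Rpl39l (0.024), Rpl12 (0.095) and Rpl5 (0.100), with Rpl41 at 0.171. With copies added to each member, the mean over pairs became 0.497 in 419 cells and 0.323 in 391. In all cells Rpl17 then had 0.540, Rpl5 0.439 and Rpl35 0.245, while Rpl41 (0.175) and Rpl39l (0.091) changed little. In the 391 cells Rpl12 had 0.303, Rpl5 0.254 and Rpl35 0.111 with copies, and Rpl39l (0.027) and Rpl10l (0.017) stayed low.

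The alleles moved together at the level of the family. The sum over 71 informative members from 129 correlated with the sum from CAST at 0.920 in 419 cells and 0.834 in 391. To avoid setting a gene beside itself, every other member was summed for 129 and the remaining members for CAST, and these sums correlated at 0.849 in 419 cells and 0.706 in 391. For single members the mean correlation was 0.172 between the 129 value of a member and the CAST value of another, 0.199 between 129 values and 0.181 between CAST values. Over the 391 cells these were 0.085, 0.115 and 0.099. Both tables come from the same libraries, and the handling of reads without a strain variant is not stated in the labels.

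**Figure D5:**
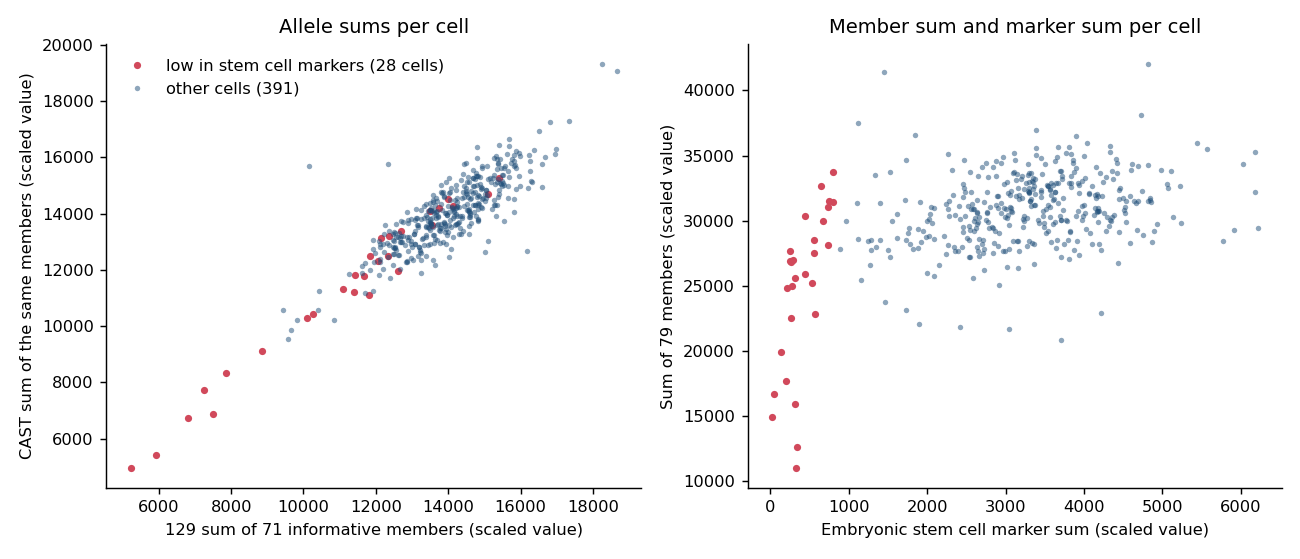
Left, the sum of the 71 informative members from CAST against that from 129, 1 point per cell. Right, the sum of 79 members against the sum of 10 embryonic stem cell markers; the 28 cells low in these markers (large points) reach the lowest member sums, and the allele sums correlate at 0.920 over 419 cells and 0.834 over the other 391.

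Against the sum of the members, each member left out of its own sum, 62 of 79 had a correlation of at least 0.5, against 2.14% of 11857 genes and 14.6% of the 831 other genes of high mean. In the 391 cells 38 members did, against 0.38% of all genes and 0.842% of the 831, and these 38 were most of the 45 genes at that limit. Among the other 7 were Rack1 and Fau, a pseudogene or retrocopy each of Rpl37 (Rpl37rt), Rpl27a (Gm7536) and Rps25 (Rps25-ps1), and the lincRNA Gm10076. Rack1 and Fau encode ribosomal proteins whose names fall outside the rule. The correlation of Rack1 was 0.76 in 419 cells and 0.58 in 391, and that of Fau was 0.59 and 0.52.

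Sums over comparison lists were set against the sum of the members in the same way. The nuclear respiratory chain genes had a correlation of 0.705 in 419 cells and 0.469 in 391, translation factors and other mRNAs with a terminal pyrimidine tract 0.653 and 0.475, ribosome biogenesis genes 0.663 and 0.369, mitochondrial ribosomal proteins 0.645 and 0.374, and proteasome subunits 0.425 and 0.155. In the 391 cells none of the genes on these 5 lists reached a correlation of 0.5. Among the translation factors, Btf3 (0.48), Eef1g (0.47) and Naca (0.45) came closest.

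Genes that regulate ribosomal protein synthesis, 13 in the list, had a summed correlation of 0.355 in 419 cells and 0.034 in 391. Trp53, the tumour suppressor that responds to free Rpl5 and Rpl11, had 0.59 and 0.30, and Eif4ebp1, a target of mTOR, had 0.45 and 0.33. Mtor itself had 0.13 and 0.078, Larp1, which binds terminal pyrimidine tracts, had 0.16 and -0.092, and Mdm2 had -0.24 and -0.17.

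The start sites of the members were compared with those of all genes. RefSeq promoter entries (GRCm38.p6) were found for 60 members, with 72 entries of 300 bases. In the 10 bases before and 20 after the annotated start, a run of at least 8 C or T was present in 31.9% of the members' entries, against 11.2% of all 32851. The 6 windows below belong to the members with such a run and the highest mean correlation to other members, and capitals mark the run.

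Rps18: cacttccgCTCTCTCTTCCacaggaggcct
Rpl28: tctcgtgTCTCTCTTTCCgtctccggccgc
Rplp2: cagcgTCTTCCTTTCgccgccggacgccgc
Rpl18: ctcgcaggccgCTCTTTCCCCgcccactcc
Rps9: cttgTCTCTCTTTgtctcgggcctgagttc
Rps24: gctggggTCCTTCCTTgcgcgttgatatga

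These lie at chr17:33955646-33955675 (minus strand) for Rps18, chr7:4792955-4792984 for Rpl28, chr7:141447641-141447670 for Rplp2, chr7:45718061-45718090 for Rpl18, chr7:3704031-3704060 for Rps9 and chr14:24490668-24490697 for Rps24, all on the plus strand but Rps18. In 5 of the 6 the run spans the annotated start, which follows the 10th base, and in Rpl18 it begins just after it. The run was not limited to members with a high mean correlation, since Rpl35 had a run of 18 bases. Its mean correlation was -0.014 as annotated and 0.245 with copies added to each member.

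Over the 300 bases and both strands, CCGGAAG, a core of sites for ETS factors, was present in 36.1% of the members' entries, against 8.86% of all, and ATGGCG, a core of YY1 sites, in 33.3%, against 8.93%. CACGTG, the E-box that Myc can bind, was in 11.1%, against 7.15%, and TATAAA in 6.94%, against 13.6%. A match describes the letters of the window and says nothing of binding.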

How the data were processed

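RamDA-seq libraries of 419 single cells were analysed from 2 tables of 117762 Ensembl transcripts, 1 per allele. Per the submitters' processing notes, Bowtie 1.1.2 and mm10 were used, with no role stated; how reads were assigned to alleles was not given in the sources used here. All deposited entries are whole and their unit was taken as a score: allele counts as estimated and rounded by the authors, with totals that hardly differ between cells. The design had assumed counts; count tests and binomial intervals were not used, and the depth in reads is unknown. No column was left unmatched (0).

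Rows were joined to GENCODE vM21 and summed per gene; 116824 rows matched, and the unmatched held 0.360% of all values. Cells were scaled to a common total, and correlations used log2(value + 1). Allele information meant a squared allele difference of at least 0.5 of the total. Noise needed a mean of 5 per allele and a 129 share of 10% to 90%; residuals used a running median of 201 genes. Copies were pseudogenes with at least 50% of their 25-base words in a member. No doublet caller was run. No replicate groups exist, so spreads are over cells or lanes and may be technical.

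The members and lists were chosen with earlier results of these data known. Named were the 5 highest and 5 lowest members per measure, paralogs, stalk, 5S-particle and chromosome 12 members, Rpsa, Rps6, Rps19, Rps27a and comparison lists; other names were chosen after their values were seen. The noise split, residual and correlation were tested on simulated data. Python 3.11.15, numpy 2.4.6, pandas 2.3.3 and scipy 1.17.1 were used. A few genes are not reported here by name.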

Additional observations from a re-analysis of the deposited data

How the results depend on the processing

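Of 126 values under an alternative, 100 moved by less than the SD over 5 lanes (for a count, within 1.5 times), 26 moved further and 0 changed sign. Leaving out each lane in turn moved none further; the mean pair correlation then ran from 0.367 to 0.424. With the row of most counts per gene, the share of cell total was 2.77%, the SD of log2 level 1.41, large minus small -0.71 and the median intrinsic residual -0.998. With protein-coding rows only, the share was 2.95% and the SD 1.87. The 9 members with at most 20% shared sequence gave a share of 0.4003%, an SD of 2.27, large minus small -3.39, a median 129 share of 49.0%, 1 member beyond 40% to 60%, a shared noise of 0.0143 and an allele sum correlation of 0.560. Without rescaling, shared noise was 0.0149, and with autosomal totals without ribosomal RNA the share was 4.35%. Spearman correlations were 0.285 for pairs and 0.833 for allele sums. Adding named pseudogenes gave a share of 3.62% and large minus small -0.46, and the length of the top row also gave -0.46. The remaining alternatives were chosen after seeing the data. With all copies added, the share was 3.95%, the SD 1.12 and large minus small -0.10. Without the 28 cells low in stem cell markers, shared noise was 0.00439, the pair correlation 0.246 and the allele sum correlation 0.834. The cause was not tested where a value moved. No paired analysis was possible because all cells form 1 group. Depth in reads is unknown, and without molecular identifiers reads are not molecules. Member and copy cannot be told apart over shared stretches, and the effect of reads without a strain variant on allele differences was not tested.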
